A study of Mus musculus with 7 samples.

Results

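The fibrous matrix of the liver was read here through 10 genes: Col1a1, Col1a2, Col3a1, Col4a1, Dcn, Bgn, Sparc, Timp3, Vim and Des. They were taken by name as genes of hepatic stellate cells and of the matrix those cells lay down. All 10 were among the 8251 named genes of the array, on 15 of its 12488 probe sets, and 7 of them had a mean signal high enough to be tested. The series holds 7 samples of female mouse liver RNA, with 1 array per sample. The titles and source names describe phenotypically normal animals, genotype +/+ or +/df, with free access to food, whereas the description field gives the Ames dwarf genotype df/df, and the titles were followed. The mice were killed at 24 to 26 months of age. Replicates carry the numbers in the titles: 1, 2, 3, 4, 6, 7 and 8. All formed 1 group, so the data give levels and the spread between samples, and no comparison with another genotype, diet or age. No label states that each RNA came from a separate animal, so the p-values measure only the spread between these samples, which may be technical.

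Hepatic stellate cells lie in the space of Disse, between the hepatocyte plates and the sinusoidal endothelium, and store vitamin A. They make much of the normal liver's thin matrix, and after injury they become myofibroblasts that deposit fibrillar collagen. Portal fibroblasts, smooth muscle of vessel walls and endothelial cells also express several of these genes, so none of the 10 marks stellate cells alone. In whole liver, fewer cells of a type and less RNA per cell cannot be told apart.

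Signals are given as intensities scaled so that every array had the same trimmed mean, 500.4, and a signal below 50.04 was treated as not separable from background. Probe sets differ in how strongly they bind their target, so the signals of different probe sets do not rank the genes. The tested genes with the highest signal by name were Dcn, Col1a2 and Bgn, at means of 4677, 1813 and 1553, and Col1a1, Col4a1, Sparc and Timp3 lay between 217 and 466. Col3a1, Vim and Des were brighter than the floor on every array but had means of 171, 110 and 185, below the 200.1 needed for testing. Des lay closest below that limit and Col4a1, at 217, closest above it. Where several probe sets read 1 gene, the brightest was used, a choice that mattered for Col1a1, Col1a2, Col3a1 and Bgn. The dimmer probe sets are described beside it.

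Promoter sequence from RefSeq, build GRCm38.p6, was held for 8 of the 10 genes, all but Col1a1 and Dcn. The 250 bases before the annotated start are shown for the genes on which the readings turned: Col1a2 and Col3a1, whose probe sets disagreed, Timp3, which varied most among the tested genes, and Des, which varied most of all 10 on its brightest probe set. Capitals mark 3 promoter motifs on either strand: TATAAA (the letters of the TATA box), CCAAT and GGGCGG (the letters of the GC box). The windows are chr6:4505368-4505617 for Col1a2, chr1:45311288-45311537 for Col3a1, chr10:86300162-86300411 for Timp3 and chr1:75360042-75360291 for Des, all on the plus strand.
Col1a2: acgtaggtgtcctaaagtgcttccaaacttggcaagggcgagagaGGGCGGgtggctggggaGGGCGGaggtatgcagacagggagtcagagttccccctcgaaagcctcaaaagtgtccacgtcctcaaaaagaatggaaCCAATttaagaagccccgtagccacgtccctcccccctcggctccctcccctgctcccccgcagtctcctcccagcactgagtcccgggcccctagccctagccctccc
Col3a1: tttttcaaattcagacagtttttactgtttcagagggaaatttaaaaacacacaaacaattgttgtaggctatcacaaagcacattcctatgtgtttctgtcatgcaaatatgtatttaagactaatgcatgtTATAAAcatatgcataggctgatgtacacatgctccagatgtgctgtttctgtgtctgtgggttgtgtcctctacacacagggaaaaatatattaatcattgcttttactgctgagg
Timp3: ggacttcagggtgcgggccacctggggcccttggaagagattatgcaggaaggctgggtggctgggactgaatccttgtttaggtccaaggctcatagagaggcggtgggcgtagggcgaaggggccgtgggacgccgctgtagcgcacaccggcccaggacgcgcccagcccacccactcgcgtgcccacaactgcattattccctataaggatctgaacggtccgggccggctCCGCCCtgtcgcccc
Des: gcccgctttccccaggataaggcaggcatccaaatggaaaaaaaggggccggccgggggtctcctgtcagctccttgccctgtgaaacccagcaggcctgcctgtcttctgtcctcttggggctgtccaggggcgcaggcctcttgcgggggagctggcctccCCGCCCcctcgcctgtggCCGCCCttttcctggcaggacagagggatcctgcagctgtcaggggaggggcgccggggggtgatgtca
TATAAA was found in 2 of the 8 windows, those of Col3a1 and Vim, and in 12.4% of 32851 mouse promoters of the same length. CCAAT was found in 3 of 8, those of Col1a2, Col4a1 and Vim, against 33.8% of all promoters. GGGCGG was found in 4 of 8, those of Col1a2, Bgn, Timp3 and Des, against 32.7%. The Sparc window held none of the 3. A match describes these letters only and is not a site of binding. Col4a1 and its partner chain Col4a2 start 21 bases apart on opposite strands of chromosome 8, at 11312826 on the minus strand and 11312805 on the plus strand.

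The fibrillar collagens gave readings that depended on the probe set. Col1a1 and Col1a2 encode the chains of type I collagen, the main collagen of scar tissue. On its brighter probe set Col1a1 had signals of 432, 451, 434, 517, 443, 346 and 473 on replicates 1, 2, 3, 4, 6, 7 and 8, a mean of 442 ± 51.7 (SD, n = 7). Replicate 7 was the lowest and replicate 4 the highest, and the other 5 lay within 432 to 473. On its dimmer probe set the same gene had 86.6, 219, 99.4, 32.0, 19.6, 82.1 and 113, a mean of 93.1 ± 65.3, with 2 arrays below the floor. Replicate 2 was highest there, and replicate 4, highest on the brighter probe set, was among the 2 below the floor.

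Col1a2 also had a bright and a dim probe set. Its brighter probe set, whose suffix (_r_at) marks relaxed design rules, had signals of 1478, 1703, 1805, 1944, 2208, 1820 and 1733, a mean of 1813 ± 225 (SD, n = 7). Replicate 6 was highest and replicate 1 lowest. Its dimmer probe set had 83.2, 134, 31.2, 55.1, 29.8, 49.7 and 122, a mean of 72.1 ± 42.2, with 3 arrays below the floor. Replicates 3, 6 and 7 were the 3 below the floor and have no order among themselves. Across samples the log2 signals of the Col1a2 probe sets had a negative correlation (Pearson r = -0.56, exact two-sided permutation p = 0.204; Spearman rho = -0.70, exact p = 0.105). That relation did not pass the test, with an adjusted exact p of 0.407 over the 6 probe set pairs computed, and r was -0.78 without replicates 1 and 6. For the Col1a1 probe sets r was -0.10 (exact permutation p = 0.835, adjusted 0.835; rho = 0.05, exact p = 0.919), and 0.33 without replicates 4 and 7.

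The dim probe sets of the 2 type I collagen genes had a higher r with each other than either had with its own bright partner, but it did not pass adjustment. Between the dim Col1a1 and the dim Col1a2 probe set, log2 signals had r = 0.77 (exact two-sided permutation p = 0.0369, adjusted 0.221; rho = 0.67, exact p = 0.120). Without replicates 2 and 6, the farthest from the median, r was 0.50. Within the array sets described further on, with set means removed, it was 0.77 (exact permutation p = 0.0972). The difference between these correlations and those of the bright probe sets was not tested, and the 6 pairs were chosen after their values were seen. Which probe set reads type I collagen in this liver was not tested.

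Col3a1 encodes type III collagen, the fibrillar collagen of reticulin fibres. Its brightest probe set had signals of 126, 260, 169, 153, 153, 199 and 136, a mean of 171 ± 45.8 (SD, n = 7). Replicate 2 stood highest and replicate 1 lowest. Its other 2 probe sets had means of 31.3 and 16.9 and were below the floor on all 7 arrays. The log2 signal of the brightest had r = 0.59 with the dim Col1a1 probe set (exact permutation p = 0.160, adjusted 0.407; rho = 0.23, exact p = 0.613), and -0.13 without replicates 2 and 6. Leaving out replicate 2 alone gave -0.0926 and leaving out replicate 6 alone 0.61, so the value rested on replicate 2. With the dim Col1a2 probe set r was 0.17 (exact permutation p = 0.732, adjusted 0.835; rho = -0.15, exact p = 0.781), and -0.81 without replicates 2 and 8.

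**Figure D1:**
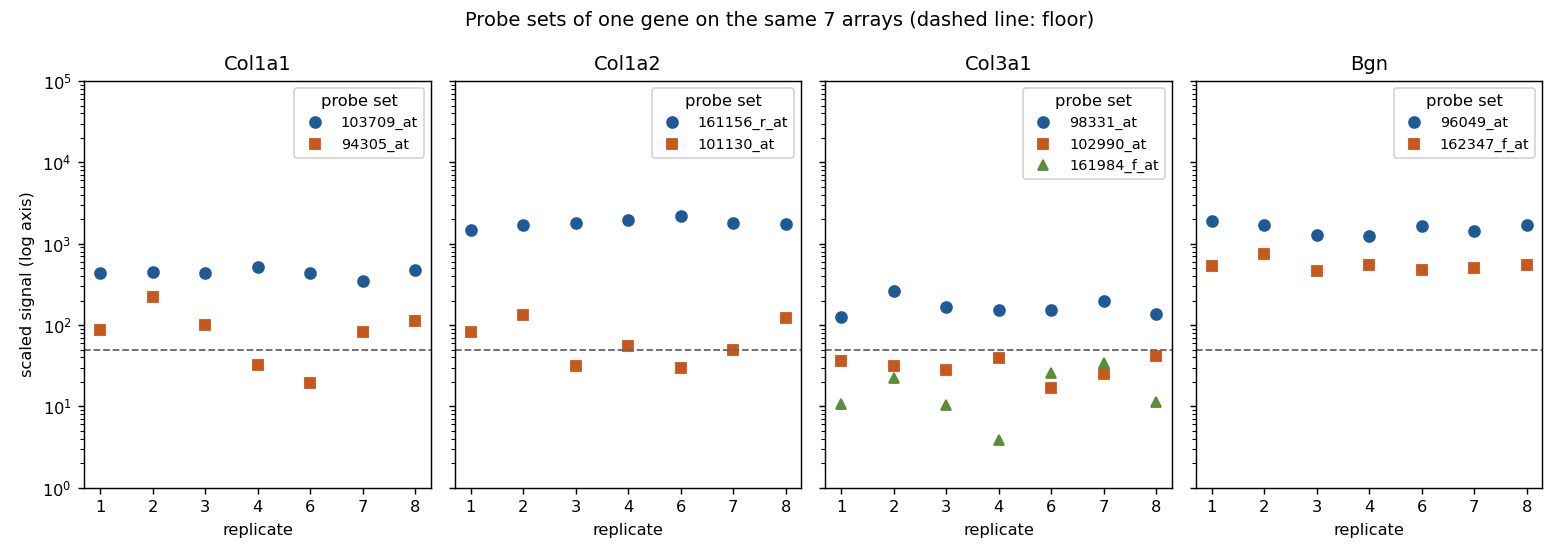
Scaled signal (log axis) of every probe set of Col1a1, Col1a2, Col3a1 and Bgn on the 7 arrays, numbered by replicate on the horizontal axis, with the floor of 50.04 as a dashed line and the array's probe set names in the legends. Points are single arrays. The dim Col1a1 and Col1a2 probe sets cross the floor while their bright partners have lowest signals of 346 and 1478, and 2 of the 3 Col3a1 probe sets lie below the floor throughout.

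Col4a1 encodes a chain of type IV collagen, the network-forming collagen of basement membranes, which in the liver sinusoid is sparse. It had signals of 269, 154, 224, 284, 179, 216 and 192, a mean of 217 ± 47.0 (SD, n = 7). Replicate 4 was highest and replicate 2 lowest. Col4a2, which encodes the partner chain, ranged from 359 to 467 with a mean of 433 ± 37.5. The log2 SD was 0.31 for Col4a1 and 0.13 for Col4a2. The log2 signals of these neighbours had r = 0.14 across samples (exact permutation p = 0.785, adjusted 0.968; rho = 0.04, exact p = 0.963), and 0.38 without replicates 2 and 4.

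The small leucine-rich proteoglycans decorin (Dcn) and biglycan (Bgn) bind collagen fibrils and hold growth factors of the TGF-beta family. Dcn had signals of 4891, 5487, 4824, 5309, 3620, 3970 and 4636, a mean of 4677 ± 676 (SD, n = 7). Replicates 1 to 4 were the 4 highest and replicates 6 to 8 the 3 lowest. The bacterial spike-in controls, read by 9 probe sets, split the arrays the same way. Replicates 1 to 4, called array set A here, had a mean log2 spike-in signal of 10.64 to 10.97. Replicates 6 to 8, array set B, had one of 10.20 to 10.24. Dcn signals did not overlap between the sets, at 4824 to 5487 in set A and 3620 to 4636 in set B, with means of 5128 and 4075. Signals did not overlap in 7.34% of the 4481 tested genes, and in 3.73% they did not overlap with set A higher. The log2 difference, set A minus set B, was 0.34 (SE 0.10, limma adjusted p = 0.555), which did not pass the test. Dcn was the only 1 of the 7 tested genes without overlap. No gene differed between the sets at an adjusted limma p under 0.05 (0.00% of 4481), and 309 did at an unadjusted p under 0.05 (6.90%). The labels name no batch, and what set these arrays apart was not tested.

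Bgn had signals of 1881, 1689, 1293, 1237, 1639, 1422 and 1710 on its brighter probe set, a mean of 1553 ± 239 (SD, n = 7). Replicate 1 was highest and replicates 3 and 4 lowest. On its dimmer probe set, whose suffix (_f_at) marks possible reading of related genes, it had 529, 742, 468, 541, 479, 506 and 555, a mean of 546 ± 92.1, and replicate 2 stood apart from the rest. The 2 probe sets had r = 0.35 (exact permutation p = 0.501, adjusted 0.752; rho = 0.39, exact p = 0.396), and 0.22 without replicates 3 and 4. Dcn and Bgn had r = -0.09 (exact permutation p = 0.829, adjusted 0.968; rho = 0, exact p = 1), so these related proteoglycans showed no shared variation that 7 samples could detect.

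Sparc encodes a collagen-binding matricellular protein. Its signals were 544, 484, 328, 395, 441, 457 and 355, a mean of 429 ± 75.3 (SD, n = 7), highest on replicate 1 and lowest on replicate 3. With Col4a1, whose protein Sparc binds, r was -0.02 (exact permutation p = 0.968, adjusted 0.968; rho = -0.14, exact p = 0.783), and 0.46 without replicates 2 and 4.

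Timp3 encodes an inhibitor of metalloproteinases that stays bound to the matrix. Its signals were 520, 571, 271, 410, 391, 506 and 596, a mean of 466 ± 115 (SD, n = 7). Replicate 3 was lowest and replicate 8 highest, a range of 2.20-fold. Its log2 SD of 0.40 was 2.04 times the 0.19 expected at that level, rank 332 of 4481 tested genes, and did not pass the test of spread (limma adjusted p = 0.784, and 0.058 before adjustment). Without replicate 3 the log2 SD was 0.25. Timp1, another inhibitor of the family, was also lowest on replicate 3, at 349, with a highest signal of 997 on replicate 2 and a mean of 766 ± 226. Timp2 did not share this, with 180 on replicate 3 and its lowest signal, 158, on replicate 8. With Dcn, the log2 signal of Timp3 had r = 0.13 (exact permutation p = 0.789, adjusted 0.968; rho = 0.29, exact p = 0.556), and 0.65 with array set means removed (exact permutation p = 0.0903, adjusted 0.451).

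Replicate 3 also had low summed signals for endothelial and cholangiocyte markers. The summed signal of 15 measured endothelial markers was 4063 on replicate 3, against 5455 to 6290 on the other arrays, and that of 12 hepatocyte markers was 244912 on replicate 3, against 203488 to 232782. Of the 7 tested endothelial markers, 5 were lowest on replicate 3, among them Eng at 1627, Gpr182 at 267 and Cdh5 at 248. The summed signal of 8 cholangiocyte markers was 799.7 on replicate 3, against 1029 to 1668. Only 2 of the 8 were tested, Cd24a at 160 and Prom1 at 354, and both were lowest there. Of the 8, 3 were below the floor on all arrays. Of the 7 tested matrix genes, 2 were lowest there, Sparc and Timp3, where 14.0% of all tested genes were. Not every list was low on replicate 3. The summed stellate cell marker signal was 1954 there, within a range of 1802 to 2044 over the arrays. That of the collagen processing genes was highest there, at 9416. Replicate 3 was singled out after its values were seen. The part of the endothelial and cholangiocyte markers in the Timp3 and Sparc values was not tested.

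**Figure D2:**
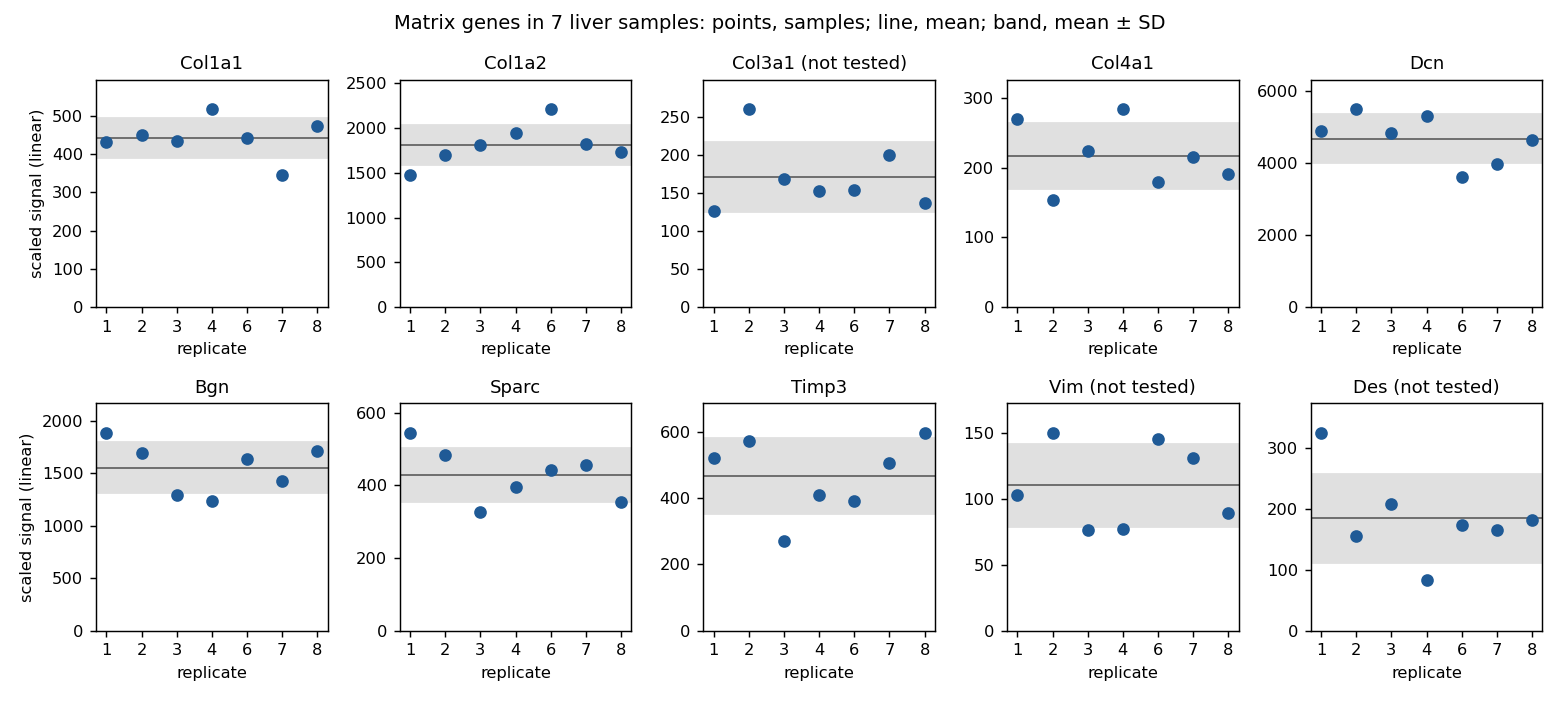
Scaled signal (linear axis from 0) of the 10 genes on their brightest probe sets, by replicate number. Points are arrays, the line is the mean over the 7 arrays and the band is the mean ± SD; Timp3 is lowest on replicate 3 at 271, Dcn lies higher on replicates 1 to 4 than on 6 to 8, and Des is highest on replicate 1 at 325.

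Vim and Des encode intermediate filament proteins. Vimentin is made by mesenchymal cells in general, and desmin marks rodent stellate cells as well as all kinds of muscle. Vim had signals of 103, 150, 76.8, 77.6, 146, 131 and 89.2, a mean of 110 ± 31.5 (SD, n = 7). Replicates 2, 6 and 7 were high and replicates 3 and 4 low, with no single array apart. Des had signals of 325, 156, 209, 82.7, 174, 166 and 182, a mean of 185 ± 73.0. Replicate 1 stood above and replicate 4 below the others, which lay within 156 to 209. Its log2 SD was 0.59, untested because of its level, and its mean without replicate 1 was 162.

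Because desmin is also a muscle protein, muscle genes were read beside it. Skeletal actin (Acta1) read 5991 on replicate 1, 2034 on replicate 2 and at most 100.4 elsewhere. The calcium pump Atp2a1 read 1136 and 803 there, with 122 to 214 elsewhere. Myl1, a myosin light chain, read 848 and 542 there, with 87.0 to 132 elsewhere. Creatine kinase Ckm did not share the pattern, at 144 on replicate 1, its lowest value, and 210 on replicate 8, its highest. Smooth muscle actin (Acta2), which also marks activated stellate cells, had 277, 427, 27.1, 24.2, 26.1, 45.1 and 79.5. The smooth muscle myosin Myh11 had 89.0, 149, 31.0, 12.5, 17.2, 37.0 and 9.60, and Tagln had 198, 318, 182, 171, 161, 147 and 127. Acta2 was above the floor on 3 arrays, replicates 1, 2 and 8, and Myh11 on replicates 1 and 2.

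Of the 8 measured smooth muscle markers, Des included, the highest signal was on replicate 1 or 2 in 8. So it was for 13 of 16 skeletal muscle genes, Des again included, and 6 of the 10 matrix genes, against 24.8% of the 8251 named genes. These replicates were singled out after their values were seen. The counts took in genes below the floor, and 1 of the 8 smooth muscle markers was below it on all arrays, where signals have no readable order. Summed over the smooth muscle markers, replicates 1 and 2 read 1605 and 1759 and the other arrays 788 to 959. Des followed this on replicate 1 but not on replicate 2, where it had 156. The ratio of 3' to 5' signal for beta-actin, a measure of RNA length, was also lowest on replicates 1 and 2, at 1.34 and 1.31, against 1.56 to 1.78. The same ratio for Gapdh did not follow this, at 0.907 and 0.866 on replicates 1 and 2, against 0.788 to 0.899. The part of muscle RNA or RNA quality in the matrix genes' values was not tested.

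**Figure D3:**
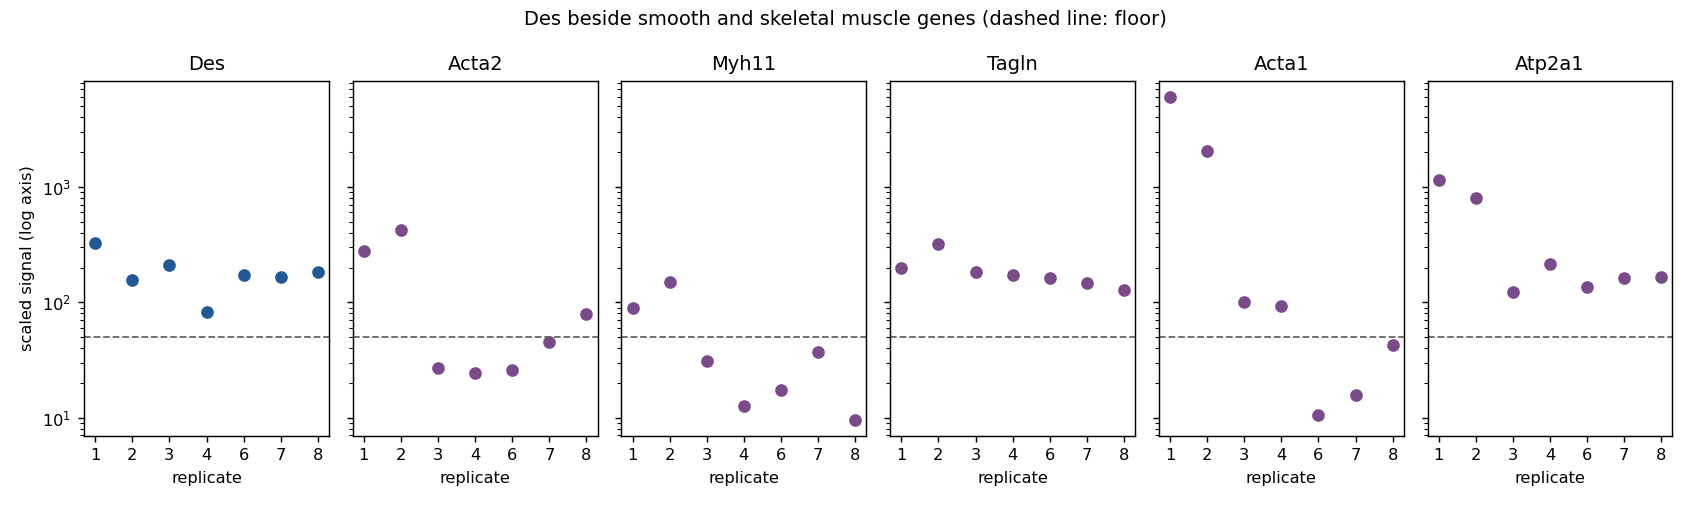
Scaled signal (log axis) of Des beside smooth muscle genes (Acta2, Myh11, Tagln) and skeletal muscle genes (Acta1, Atp2a1) by replicate, with the floor of 50.04 dashed. Points are single arrays; Acta1 has 5991 and 2034 on replicates 1 and 2, whereas Des has 325 and 156.

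Spread between samples was tested for every gene with a mean of at least 200.1. The test asked whether a gene's variance exceeded what its level predicts. None of the 7 tested matrix genes passed (limma F test, Benjamini-Hochberg adjusted p of 0.990 for 6 of them and 0.784 for Timp3). Neither did any of the 4481 tested genes (0.00%). Even Acta1, with signals from 10.5 to 5991, had an adjusted limma p of 0.0959, so a gene that did not pass may still have varied. At an unadjusted p under 0.05 the count was 0 of 7, where 301 of 4481 genes (6.72%) had such a p. Unadjusted limma p-values were 0.174 for Dcn, 0.217 for Bgn, 0.280 for Sparc, 0.397 for Col1a2, 0.420 for Col4a1 and 0.596 for Col1a1. The median log2 SD was 0.23 over the 7 genes and 0.18 over all 4481. Col1a1, at 0.18 against an expected 0.20, was the only 1 of the 7 that varied less than its level predicted, and the others ran from 1.10 times the expected SD for Col4a1 to 2.04 times for Timp3. For Col1a1 this depended on the probe sets: its log2 SD was 0.37 with the mean of all probe sets (limma adjusted p = 0.977). Leaving out replicate 7 lowered its log2 SD further, to 0.10, and leaving out any other array gave at most 0.19.

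**Figure D4:**
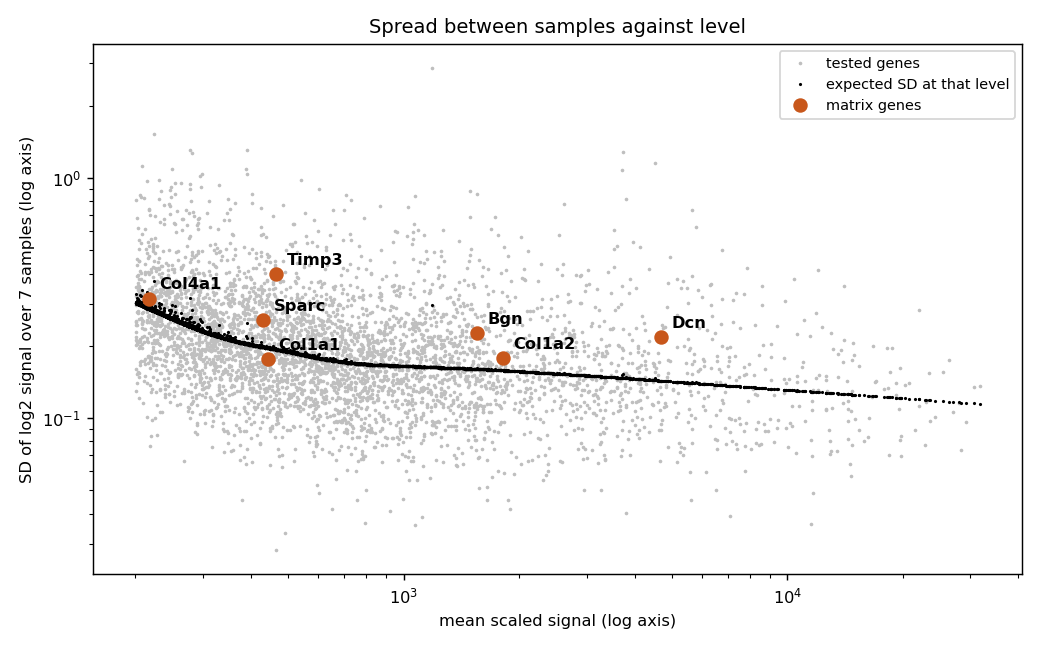
SD of log2 signal over 7 arrays (log axis) against mean scaled signal (log axis) for the 4481 tested genes (grey), the SD expected at each level (black) and the 7 tested matrix genes (orange). Timp3 lies at 0.40, above an expected 0.19, and Col1a1 at 0.18, below an expected 0.20.

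Shared variation was tested in pairs, and no pair passed. Of 10 pairs chosen by the roles of their proteins, 5 could be computed because both genes passed the level filter, and their r ranged from -0.09 to 0.14, with adjusted exact permutation p = 0.968 in each. The chains of type I collagen, made in step by collagen-producing cells, had r = 0.11 (exact permutation p = 0.787; rho = 0.18, exact p = 0.713), and 0.09 without replicates 4 and 7. With median centring r was -0.13, and with the mean of all probe sets of each gene it was 0.79 (adjusted exact permutation p = 0.145). That mean takes in the dim probe sets, whose log2 SDs of 0.73 and 0.63 exceeded the 0.18 of both bright ones. The dim probe sets had 2 and 3 arrays below the floor and r = 0.77 with each other, so the 0.79 is not a separate reading. In the full matrix, given as a description, Bgn, Sparc and Timp3 had positive correlations (r = 0.66 for Bgn and Timp3, 0.60 for Bgn and Sparc, 0.54 for Sparc and Timp3), and Col1a2 had a negative one with Dcn (r = -0.55). Against the 4480 other tested genes these were not extreme: Timp3 ranked 240 for likeness to Bgn, and Sparc ranked 329.

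**Figure D5:**
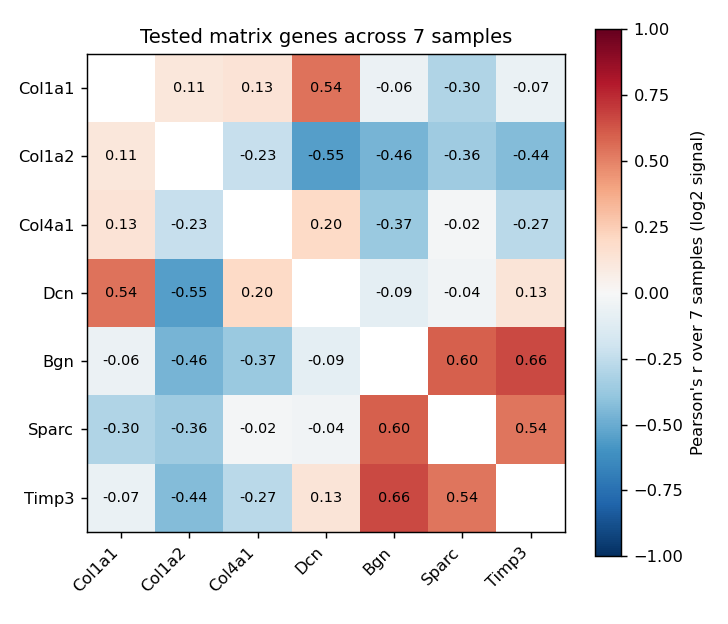
Pearson's r over 7 arrays between the log2 signals of the 7 tested matrix genes, each on its brightest probe set, coloured from -1 (blue) to 1 (red). Bgn, Sparc and Timp3 share positive values from 0.54 to 0.66, and Col1a1 and Col1a2 have 0.11.

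For each tested gene, the 5 genes with the most similar pattern over the 7 samples were listed out of 4480, as a description. None of the 7 matrix genes appeared among the 5 of another. Dcn was most like Cln8 (r = 0.977), Hibadh (0.975), Pcbd1 (0.974), Nek7 (0.943) and Samd10 (0.933). Bgn was most like H2-K1 (0.971), which encodes a class I histocompatibility antigen, Samhd1 (0.968), Phb2 (0.964), Znfx1 (0.960) and Rock1 (0.959). With 7 points and 4480 genes to choose from, the highest r is large for each gene. Col1a1 was most like Tspan31 (0.974), Pabpc4 (0.972), Apip (0.970), Acot8 (0.934) and Nppa (0.933), and Col1a2 was most like Spast (0.954), Pip4k2c (0.950), Aloxe3 (0.948), Cog1 (0.939) and Inpp5k (0.935). Col4a1 was most like Timm44 (0.959), the oxysterol receptor Nr1h3 (0.954), Slmap (0.952), Smarcd2 (0.939) and Ppa1 (0.919). No collagen appears in these lists. Sparc was most like Cpeb2 (0.963), Abl1 (0.957), Eef1a2 (0.931), Sphk2 (0.923) and Capza2 (0.913), and Timp3 was most like G3bp1 (0.973), Prmt1 (0.952), Egln1 (0.945), Npepps (0.943) and Reep5 (0.920).

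Other genes of the matrix and of nearby cells were tested for spread in the same fit, and none passed. At an unadjusted limma p under 0.05 the counts were 1 of 11 other collagens and 1 of 3 metalloproteinases and inhibitors. They were 5 of 7 for skeletal muscle genes, 1 of 11 for macrophage markers (Lyz2) and 1 of 12 for hepatocyte markers (Hnf4a). The other lists had 0, and the share of all tested genes was 6.72%. Acta1 and Myl1 were below 200.1 on every array but replicates 1 and 2, and passed the level filter only through those arrays. For such genes a large spread follows from the filter, so the skeletal muscle count cannot be set against that share. Of 27 other collagen genes listed, 24 were measured and 11 tested, none passed the test of spread, and 4 were below the floor on all arrays. Col18a1, whose product carries the endostatin fragment, had 4430 ± 344 (SD, n = 7), Col5a1 had 656 ± 63.6 and Col6a1 478 ± 84.2. Col9a1, a cartilage collagen chain, varied most, at 297 ± 152 with a range of 87.4 to 499 and an unadjusted limma p of 0.0041. Its partner chain Col9a3 had 244 ± 63.6.

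Of 31 basement membrane and glycoprotein genes, 26 were measured, 5 tested and none passed. Vitronectin (Vtn) and fibronectin (Fn1), which hepatocytes secrete into plasma, had 11906 ± 1222 and 2095 ± 191, the laminin chain Lamc1 had 573 ± 83.5, and elastin (Eln) had 375 ± 49.0. Besides Dcn and Bgn, only lumican (Lum, 335 ± 58.5) passed the level filter among 6 measured small leucine-rich proteoglycans, and 4 of the 6, Kera among them, were below the floor on all arrays.

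Among 11 measured genes of collagen processing, 7 were tested and none passed. P4hb, a subunit of prolyl 4-hydroxylase, had 2896 ± 585, the prolyl isomerase Ppib 2796 ± 374 and the procollagen C-proteinase Bmp1 743 ± 164. Lysyl oxidase (Lox), which cross-links collagen, was below the floor on every array. Of 17 measured metalloproteinases and inhibitors 3 were tested and none passed: Mmp14 had 926 ± 183, Timp1 766 ± 226 and Adam10 216 ± 28.1, and 8 were below the floor throughout. Timp1 was the only 1 of the 3 with an unadjusted limma p under 0.05, at 0.0092.

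Signals upstream of matrix production were mostly dim. Of 23 measured genes of TGF-beta and PDGF signalling, 9 were tested, 5 were below the floor on all arrays and none passed. Smad1 had 670 ± 85.7, Pdgfa 628 ± 151, the latent TGF-beta binding protein Ltbp3 567 ± 89.7 and the inhibitory Smad7 273 ± 57.9. The probe set of Tgfb1, the best known inducer of collagen in stellate cells, had a mean of 21.5 and was below the floor on all 7.

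The stellate cell markers themselves were sparsely read. Of 18 listed, 10 were measured, and 2 passed the level filter: Reln at 781 ± 38.7, a log2 SD of 0.07, and Fcna at 382 ± 52.7. Nestin (Nes) had 178 ± 35.7, and Gfap, a filament protein of quiescent stellate cells, had 169 ± 59.1. Each had 1 low array: Nes had 103 on replicate 6 against 179 to 212 elsewhere, and Gfap 53.6 on replicate 7 against 161 to 246. The PDGF receptor Pdgfrb, at 65.1 ± 17.0, was near the floor, and Hgf and Ecm1 were below it on all arrays. Lrat, the vitamin A enzyme that defines quiescent stellate cells, was not analysed here. The summed stellate marker signal ranged from 1802 to 2044.

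Markers of other matrix-producing and neighbouring cells were read as well. Of 12 measured portal fibroblast and mesothelial markers, 4 were tested and none passed the test of spread. Gas6 had 1101 ± 172 and Entpd2 291 ± 97.6, but both were among the 3 brightest, and the median signal of the 12 was 83.3. Thy1 had 74.2 ± 41.2, and 1 marker, Msln, was below the floor on all arrays. All 12 hepatocyte markers were tested, as were 11 of 14 macrophage, 7 of 15 endothelial and 2 of 8 cholangiocyte markers, and none passed. The macrophage lectin Clec4f had 1572 ± 198, the endothelial Eng 2291 ± 395 and the biliary Prom1 597 ± 135. Among 13 other intermediate filament genes, the hepatocyte keratins Krt8 and Krt18 had 2446 ± 339 and 1894 ± 268, Lmna had 1505 ± 238, and 5 were below the floor. Summed signals ranged from 2218 to 3068 for the portal fibroblast and mesothelial list and 9781 to 12490 for macrophages.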

How the data were processed

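Total liver RNA was hybridised to 1-colour Affymetrix mouse U74Av2 arrays and scanned with a Hewlett-Packard instrument, per the labels' protocols. The authors deposited 1 linear intensity per probe set and array. The image software is not named in the sources used here. The deposited arrays had 2% trimmed means of 500.36 to 500.39, so they had been scaled. Detection calls were not used, and precision is limited by the 7 arrays.

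Platform annotation gave 10833 of 12488 probe sets 1 gene symbol, 396 several and 1193 none, and 66 were controls. RefSeq matched 10817 of those with 1 symbol, and this match removed no probe set. Probe sets with several symbols or none were not used to read genes.

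Arrays were scaled to 1 trimmed mean, floored at 0.1 of it (50.04) and put on the log2 scale. The brightest probe set stood for a gene, and only genes averaging 0.4 of the trimmed mean (200.1) or more entered the tests. Means and SDs are of scaled values before the floor. An intercept-only limma 3.58.1 fit in R 4.3.3 set each variance against a robust prior following the level (5.61 prior degrees of freedom) by an upper-tail F test, Benjamini-Hochberg adjustment and a threshold of 0.05. The step was also run on simulated data, and the outcome is not reported here. Correlations used all 5040 pairings, or 144 within array sets, two-sided. Array sets were split at the widest gap (0.40) in the mean log2 signal of 9 spike-in probe sets. Python 3.11.15, numpy 2.4.6, pandas 2.3.3, scipy 1.17.1 and matplotlib 3.10.9 were used.

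The 10 genes, the 16 lists and the pairs were chosen with earlier results of these data known. Genes named were the 10, the 5 most alike to each, and per list the 3 brightest and the 2 most variable tested genes at most, and Acta1, Atp2a1, Myl1 and Ckm. Other genes named (Acta2, Myh11, Col4a2, Gfap, Pdgfrb, Hgf, Ecm1, Lox, Tgfb1, Timp2, Thy1, Msln and Lrat) were chosen for their roles after their values were seen. Alternatives were other scalings, floors, filters, priors, probe set rules, each array left out and the array set as a term. The probe set pairs and the difference between array sets were added after seeing the data.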

Additional observations from a re-analysis of the deposited data

Results flagged for a closer look

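Of the 15 probe sets of the 10 genes, 1 had a sample far from the others. On the dimmer probe set of Bgn, replicate 2 had a signal of 742 and the next highest was 555 on replicate 8. The gap was 0.629 of the whole log2 range, above Dixon's critical value for 7 samples. On the brighter probe set of Bgn replicate 2 had 1689 and lay within the others. Chance flags about 1 in 20 groups, and 2 of the 15 probe sets, both of Col3a1, were below the floor on every array and could not be flagged.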

How the results depend on the processing

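The log2 SD of the 7 tested genes stayed on the same side of the threshold in all 105 alternatives (adjusted limma p of 0.694 to 0.994). That of Timp3 ran from 0.25, without replicate 3, to 0.43, that of Col1a1 from 0.10, without replicate 7, to 0.37, with the mean of all probe sets, and that of Dcn from 0.13, with the array set as a term, to 0.24. The unadjusted limma p of Timp3 lay between 0.042 and 0.263, below 0.05 with median centring, with the array set as a term and without replicate 1, 4, 6 or 7. Over all tested genes, 0 passed the adjusted threshold, against 1 where an offset replaced the floor and 0 to 1 with 1 array left out (1 without replicate 4 or 6), and 206 to 346 had an unadjusted p under 0.05, against 301. With the mean of all probe sets, mean signals were 268 for Col1a1, 943 for Col1a2, 73.1 for Col3a1 and 1049 for Bgn. The other 106 alternatives for mean signals moved them by less than 1 SD. No pair passed the threshold under any alternative (adjusted exact permutation p of 0.145 to 0.989), and the sign of every pair turned under some. With median centring r was -0.13 for Col1a1 and Col1a2, 0.11 for Col4a1 and Sparc and 0.0323 for Dcn and Bgn. It was 0.0383 for Col4a1 and Sparc with quantile normalization. With the mean of all probe sets, dim ones included, it was 0.32 for Dcn and Bgn and 0.79 for Col1a1 and Col1a2. With the array set as a term it was -0.0529 for Col4a1 and Col4a2 and 0.11 for Dcn and Bgn. With 1 array left out r ran from -0.0575 to 0.29 for Col1a1 and Col1a2, -0.11 to 0.41 for Col4a1 and Col4a2, -0.46 to 0.27 for Col4a1 and Sparc, -0.27 to 0.20 for Dcn and Bgn and -0.0698 to 0.40 for Dcn and Timp3. Of the probe set pairs (adjusted exact permutation p of 0.0667 to 0.875), the 2 of Col1a1 had 0.14 with a floor of 0.2 and -0.32 to 0.27 with 1 array left out. Leaving out 1 array gave -0.0926 to 0.73 for the dim Col1a1 probe set with Col3a1 and -0.72 to 0.47 for the dim Col1a2 probe set with Col3a1, both lowest without replicate 2. The dim Col1a1 and Col1a2 probe sets kept r between 0.57 and 0.88, and the Col1a2 probe sets between -0.65 and -0.26. The cause of these changes was not tested. No paired analysis was possible because the samples form 1 group. Signals near the floor, such as the dim collagen probe sets, limit what can be read.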
